A study of Mus musculus with 2 samples.

Results

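The kallikrein-related peptidases of the skin and the inhibitors Spink5 and Cst6 were followed through 2 single-cell RNA libraries of mouse dorsal skin. The members were the 10 genes Klk5, Klk6, Klk7, Klk8, Klk10, Klk11, Klk13, Klk14, Spink5 and Cst6, taken by symbol from the 32285 genes of the count matrices, and each symbol matched 1 row. The control library came from skin of the genotype Wildtype and the other from skin of the genotype miR-200b induced, both at postnatal day 3 and both with the treatment Dox (called the induced library here). The labels name neither the construct nor the cells that drive it, nor the number of animals in a library. Epidermis and dermis were dissociated apart and mixed 30 to 70 before loading, so shares of cells reflect the mixing too. As each genotype is 1 library, none of the differences below could be tested, and each compares these libraries only.

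Kallikreins are secreted serine proteases that are made as inactive precursors and activate each other in cascades. In the outermost living layers of the epidermis they are released between the cells, where they cut the corneodesmosomes that hold dead cells together, and so control shedding. Spink5 encodes LEKTI, a protein of many inhibitory domains that restrains Klk5, Klk7 and Klk14, and its loss causes Netherton syndrome. Cst6 encodes cystatin M/E, which blocks cysteine proteases (cathepsins and legumain) and not kallikreins, and which cornification and the hair follicle need.

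All 8 kallikreins lie on the plus strand of chromosome 7 (GRCm38) within 160.8 kb, from 43690418 to 43851181, in the order Klk14, Klk13, Klk11, Klk10, Klk8, Klk7, Klk6, Klk5. The 10 protein-coding genes annotated in this stretch are all kallikreins, and the other two are Klk12 and Klk9. Cst6 lies on the minus strand of chromosome 19, from 5344705 to 5349574. The microRNA that names the induced library is shown with its seed (bases 2 to 8, in capitals), the stretch that pairs with target RNAs. Its mature sequence, from RefSeq, is at chr4:156055685-156055706 on the minus strand of GRCm38.
mmu-miR-200b-3p: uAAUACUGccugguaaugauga
The 7-base DNA match to this seed, CAGTATT, was in the annotated 3′ UTR of none of the 10 members, and in that of 2921 of 20870 genes (14%). The longest annotated 3′ UTR of a member ran from 53 bases in Klk8 to 3261 bases in Cst6. Over all genes its median was 966 bases, and of the members only Spink5 (1660 bases) and Cst6 were longer. Most members thus offered less sequence to search. The search says only that these letters are not in those stretches.

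Promoters are shown for Klk10, Klk8 and Klk7, which are consecutive among the members along the chromosome, with Klk9 between Klk10 and Klk8, and had 3 different patterns over the cell classes below. Each line is the 150 bases before a RefSeq start site on the plus strand of GRCm38.p6, with matches to CCACCC, a core of KLF factor sites, on either strand in capitals. Klk10 is at chr7:43780904-43781053, Klk8 at chr7:43797427-43797576 and Klk7 at chr7:43811144-43811293.
Klk10: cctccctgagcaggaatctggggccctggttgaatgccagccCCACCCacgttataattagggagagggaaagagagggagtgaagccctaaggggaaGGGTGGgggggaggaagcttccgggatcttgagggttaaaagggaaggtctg
Klk8: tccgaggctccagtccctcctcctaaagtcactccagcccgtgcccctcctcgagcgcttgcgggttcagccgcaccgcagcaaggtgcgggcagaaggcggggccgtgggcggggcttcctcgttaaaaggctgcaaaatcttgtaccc
Klk7: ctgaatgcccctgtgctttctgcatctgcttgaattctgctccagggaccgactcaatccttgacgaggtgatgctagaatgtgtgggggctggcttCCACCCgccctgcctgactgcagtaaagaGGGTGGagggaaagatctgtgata
Klk10 held the match at -108 and -52 from its start site and Klk7 at -53 and -24. Over the 250 bases before each start site, the match was in 6 of 10 start sites of 8 members (Klk14, Klk13, Klk11, Klk10, Klk7 and Klk5), against 28.1% of 32851 promoters. TATAAA (12.4% of promoters), TGANTCA (the AP-1 site, 6.75%) and AACCGGTT (the GRHL site, 0.116%) were in none of the 10. Spink5 and Cst6 were not matched.

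The control library held 9072 barcodes and 100409201 unique molecular identifiers (UMIs), and the induced library 9114 and 119705137. After filtering and removal of the barcodes most like doublets, 4827 and 4910 cells were kept, of which 3964 and 4119 were epithelial, with medians of 16064.5 and 21147 UMIs per epithelial cell. The libraries shared 74 barcodes, 10 of them among those that passed the filter. Gm13648, the transcript that spans the miR-200b locus, stood at 2.22 CPM (its UMIs per 1000000 UMIs of the same cells) in the control and 529 CPM in the induced epithelial cells, in the direction of the labels. Cell classes were rebuilt from marker genes, and "-like" is meant with each class name. Of 48 epithelial clusters, 38 drew 95% or more of their cells from a single library, so most classes are held by different clusters in the 2 libraries, and such a cluster may be that library and not a type.

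Named epidermal cells numbered 730 in the control and 1744 in the induced library. They were basal (587 and 1392), spinous (134 and 294) and granular (9 and 58). Upper follicle and isthmus cells, the part of the follicle near the skin surface, numbered 240 and 298. They also carried the epidermal keratins Krt10 at 9036 and 11099 CPM and Krt1 at 5902 and 6671 CPM. The companion class was 1 cluster of 20 control and 31 induced cells led by Pinlyp, Car6 and Sprr1a. Its name rested on 3 of 7 companion markers. It also carried the upper follicle marker Krt79 at 11624 and 16649 CPM, and its level of the companion keratin Krt75 (142 and 739 CPM) was below that of the inner root sheath cells (430 and 2772 CPM). The companion cells of the induced library had 8.44 CPM of Gm13648 against 6.57 CPM in the control, so in this class the locus did not separate the libraries. The same transcript stood at 620 CPM in the epidermal and 164 CPM in the upper follicle cells of the induced library.

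Most members were higher in the granular than in the basal layer and high again in the companion and upper follicle cells, as the plot of levels by class shows. Klk5 encodes the trypsin-like protease that starts the epidermal cascade. In the control library it had 20.8 CPM in basal, 89.98 CPM in spinous and 1312 CPM in granular cells, with 95% Poisson intervals of 18.3 to 23.6, 82.2 to 98.3 and 1221 to 1407 that, like all intervals here, cover counting error only. In the induced library these levels were 4.77, 86.5 and 713 CPM. Klk7, the chymotrypsin-like protease that cuts corneodesmosin and is itself activated by Klk5, followed the same order with 6.95, 75.6 and 2479 CPM in the control and 2.31, 118 and 1313 CPM in the induced library. Its basal levels lay beside 4.45 and 6.74 CPM in fibroblasts and are read as background. Its companion level was above its granular level, at 4066 CPM in the control and 3961 CPM in the induced library. Klk7 had a UMI in each of the 20 control and 31 induced companion cells.

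**Figure D1:**
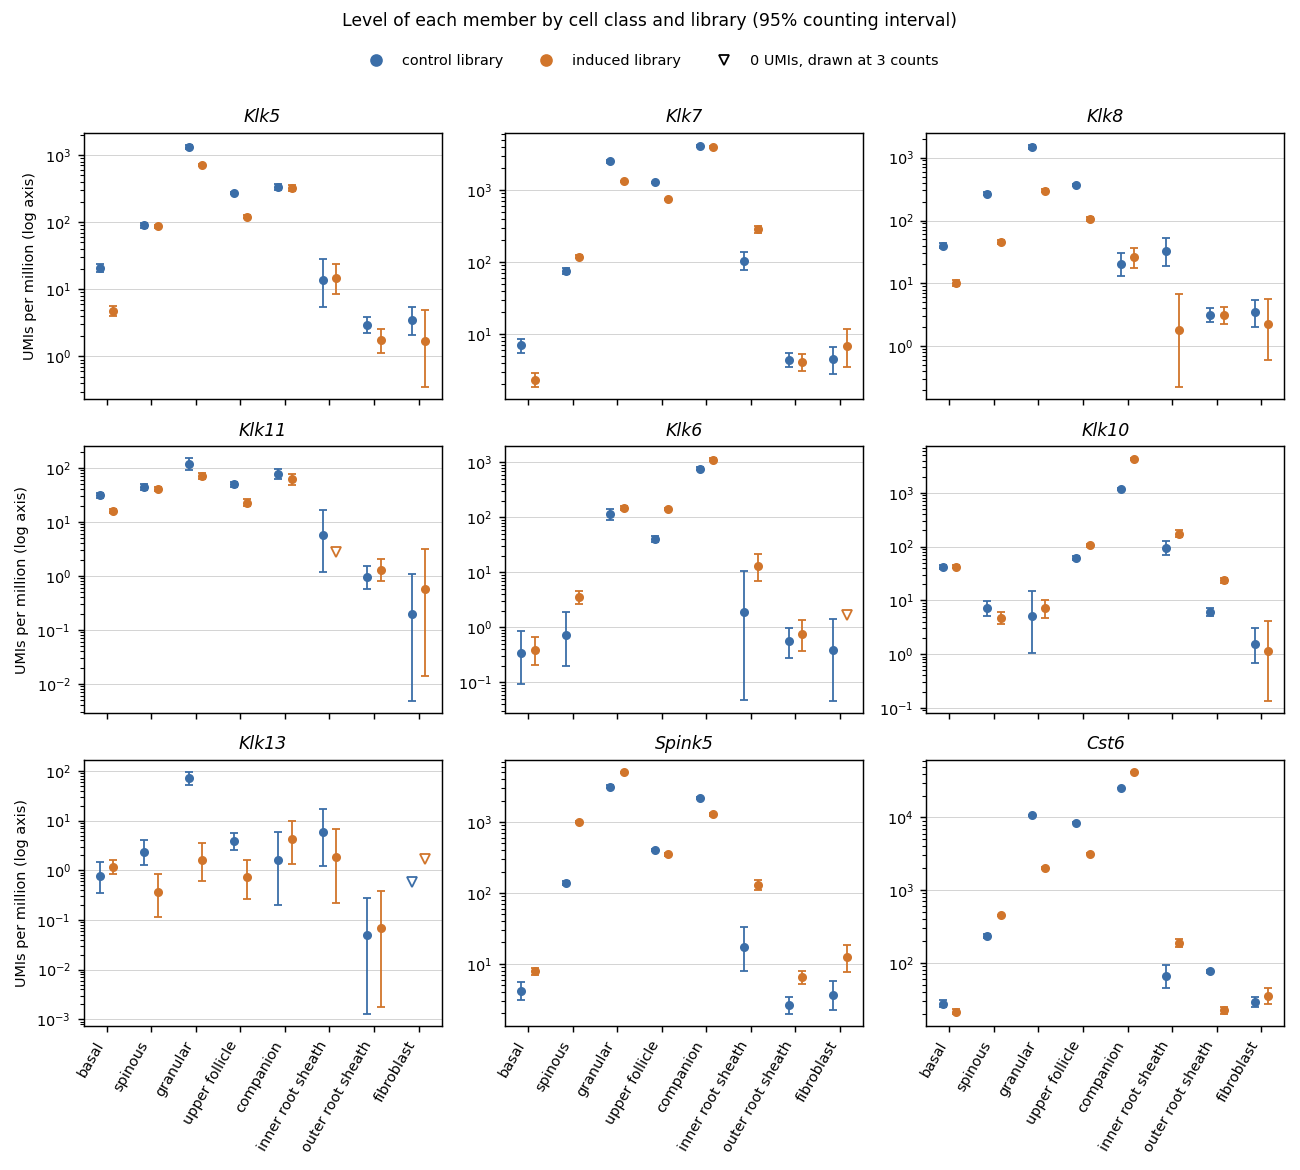
Level of 9 members (CPM, log axis) in 8 cell classes of the control library (blue) and the induced library (orange), with 95% Poisson intervals that cover counting error only; open triangles mark 0 UMIs and are drawn at 3 counts. Klk5, Klk7, Klk8 and Spink5 climb from basal to granular cells, Klk10 peaks in companion cells, and fibroblasts are at or near the low end.

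Klk8, a trypsin-like protease also known as neuropsin, differed from Klk7 in where it was low. It had 39.6, 267 and 1476 CPM in basal, spinous and granular cells of the control library and 10.2, 46.0 and 297 CPM in those of the induced library. In companion cells it had only 20.5 and 26.2 CPM, below its upper follicle levels of 368 and 106 CPM. Klk11, another trypsin-like member, ranged in the epidermis from 31.3 CPM in basal to 118.8 CPM in granular cells of the control and from 15.8 to 71.8 CPM in the induced library. Both were above the fibroblast level in basal cells: fibroblasts had 3.48 and 2.25 CPM of Klk8 and 0.194 and 0.562 CPM of Klk11.

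Klk10 and Klk6 were highest in other cells. Klk10 had 41.7 CPM in basal cells of the control and 42.5 CPM in those of the induced library, but 7.12 and 4.76 CPM in spinous and 5.09 and 7.07 CPM in granular cells, so that unlike Klk5 and Klk7 it was lower above the basal layer. In companion cells it reached 1193 and 4261 CPM, and these cells, 0.505% and 0.753% of the epithelial cells, held 47.8% and 58.7% of all epithelial Klk10 UMIs. Klk6, a trypsin-like protease, had 759 and 1112 CPM in companion cells against 0.339 and 0.385 CPM in basal cells. In the control library 65.2% of its epithelial UMIs came from sebaceous gland cells, mostly from a cluster of 22 cells led by Ces4a, Elovl4 and Elovl7 with 2573 CPM. The induced library had 3 sebaceous gland cells against 179 in the control, so this source cannot be compared.

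Klk13 and Klk14 were near the limit of detection. Klk13 had 134 UMIs in all control and 80 in all induced epithelial cells, and Klk14 had 1 and 2. The 9 granular cells of the control held 42 of the Klk13 UMIs, spread over 7 cells, which is 71.3 CPM (51.4 to 96.3), whereas the 58 granular cells of the induced library held 6, or 1.63 CPM (0.598 to 3.55). Klk14, which encodes a trypsin-like activator of the cascade, had no UMI in granular cells of either library. None of the 18 other kallikrein genes of the matrices reached 10 CPM in epithelial cells. The highest, Klk9, had 296 and 181 UMIs, and Klk12 had 3 and 11.

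Spink5 was the member with the highest granular level among the proteases and their inhibitor LEKTI, while its basal level was near that of fibroblasts. Its basal levels of 4.15 and 7.80 CPM lay beside 3.68 and 12.4 CPM in fibroblasts, a cell type that should lack it. In spinous cells it had 138 CPM in the control and 999 CPM in the induced library, and in granular cells 3132 and 5013 CPM. Companion cells had 2188 and 1280 CPM and upper follicle cells 399 and 349 CPM. In the control library 24.5% of its epithelial UMIs came from sebaceous gland cells, 26.5% from upper follicle, 23.6% from companion and 16.4% from granular cells. In the induced library granular and spinous cells held 48.8% and 36.7% of them.

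Cst6 was the most strongly counted member, with 114351 epithelial UMIs in the control and 93603 in the induced library. It had 25446 and 42088 CPM in companion cells and 8475 and 3156 CPM in upper follicle cells, and these classes together held most of its UMIs: 27.1% and 53.3% came from companion, 55.5% and 27.6% from upper follicle cells. Basal cells had 27.3 and 21.3 CPM, close to the 29.0 and 34.8 CPM of fibroblasts, and their Cst6 is read as background. The UMIs were unevenly spread over cells. In the companion class 1 control cell held 31.2% and 1 induced cell 30.9% of them, and the level per cell ran from 0 through a median of 8374 to 192343 CPM in the control and from 0 through 9543 to 290442 CPM in the induced library.

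Over all epithelial cells, 8 of the 10 members reached 10 CPM in 1 library, the level needed here for a ratio. A member is called higher or lower when the ratio of the 2 levels, with 5 CPM added to each, was at least 2-fold. Spink5 and Klk10 were higher and Klk8 was lower in the induced library, and 5 stayed within 2-fold. Of 8604 genes, 2.59% were higher and 4.27% lower by the same rule, and the median of the 8 members was -0.24 on the log2 scale against -0.10 for all genes. Spink5 had 146 CPM in the control and 383 CPM in the other library (log2 ratio 1.39, 95% interval 1.36 to 1.42). Klk10 had 39.3 and 87.2 CPM, or 1.15 (1.09 to 1.21), and Klk8 86.9 and 33.8 CPM, or -1.36 (-1.42 to -1.30). These sums mix cell types, and the number of cells of a type and the UMIs per cell cannot be told apart in them. Without the 1 cell per library that held most Klk10 UMIs, the Klk10 ratio was 0.86, under the fold. The Klk8 ratio was -0.99 with 20 CPM added, -0.97 with every cell weighted equally and -0.20 in the clusters with at least 20 cells in each library, all under the fold. In those clusters, none of which is epidermal, Klk6 and Klk10 were the members called higher and Spink5 was at -0.34. Of all genes 2.99% were higher and 3.62% lower in them.

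In epidermal cells the protease Klk8 was lower and the inhibitor Spink5 higher in the induced library. Klk8 had 157 CPM in the control and 40.5 CPM in the other (log2 ratio -1.95, interval -2.03 to -1.87). Spink5 had 148 and 635 CPM, a ratio of 2.10 (2.04 to 2.16). Of the 8 members with enough counts, these were the 2 past the fold, and the other 6 (Klk5, Klk6, Klk7, Klk10, Klk11 and Cst6) stayed within it. The sums pool layers in unlike mixes, with 9 granular of 730 control and 58 of 1744 induced cells. Klk5 was at -0.12 here, but at -2.13 in basal, -0.06 in spinous and -0.88 in granular cells. Klk7 was at 0.22 here, with 0.64 in spinous and -0.92 in granular cells, and Spink5 was at 2.86 and 0.68 there. The part of the mix was not tested. Klk6 had 4.196 and 11.9 CPM, a ratio of 1.501 (1.15 to 1.87) that came to 0.88 with 5 CPM added and 1.31, past the fold, with 1 CPM added. With 1 CPM added 4.49% of all genes were higher. Cst6 was called lower under the stricter filter (-1.21), library-centred clustering (-2.02) and resolution 1.0 (-1.08), where 2.91%, 2.87% and 2.89% of all genes were lower. Of 8145 genes, 3.22% were higher and 3.39% lower. The median of the members was -0.06 and that of all genes -0.01.

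**Figure D2:**
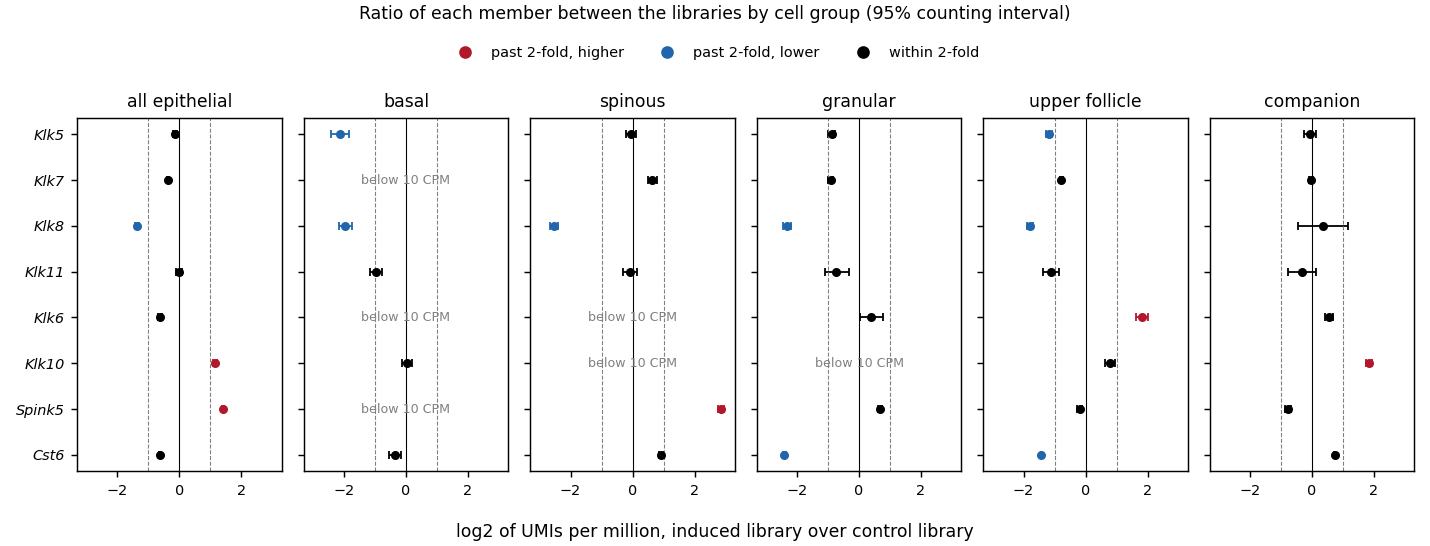
Log2 ratio of CPM, induced over control library, for 8 members in 6 cell groups, with exact 95% counting intervals; dashed lines mark 2-fold, and the colour gives the call made with 5 CPM added. Klk8 lies left of the dashed line in all epithelial, basal, spinous, granular and upper follicle cells and Spink5 right of it in all epithelial and spinous cells, while companion cells differ past 2-fold only in Klk10.

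The Klk8 difference was present in each epidermal layer. In basal cells the log2 ratio was -1.95 (-2.16 to -1.75), in spinous cells -2.54 (-2.67 to -2.40) and in granular cells -2.31 (-2.44 to -2.18). The 9 control granular cells had 744 to 2211 CPM of Klk8, with a median of 1301 CPM, and the 58 induced ones 0 to 894 CPM, with a median of 287 CPM. These ranges overlapped only between 744 and 894 CPM. After thinning every cell to 2000 UMIs, 36.8% of control spinous cells (28.7 to 45.6) and 8.84% of induced spinous cells (5.86 to 12.7) had a Klk8 UMI, against 0.766% and 0.803% of fibroblasts. Without thinning the shares were 88.8% and 56.5% in spinous cells, at median depths of 36821 and 48806.5 UMIs, and 3.42% and 1.42% in fibroblasts, at 9509 and 5997 UMIs.

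The Spink5 difference was large in the spinous layer and smaller in the granular layer. In spinous cells 756 UMIs in the control and 13856 in the induced library gave a log2 ratio of 2.86 (2.75 to 2.96). Of the induced UMIs, 7073 came from the 54 cells of the cluster led by Sprr1b, which was rich in loricrin (below). Spinous cells with a Spink5 UMI made up 15.8% (10.1 to 23.1) in the control and 62.2% (56.4 to 67.8) in the induced library at 2000 UMIs per cell, and 64.2% and 98.6% without thinning, against 0.383% and 0.803% of thinned fibroblasts. The median spinous cell had 58.7 CPM in the control and 599 CPM in the induced library. In granular cells the ratio was 0.68 (0.61 to 0.75), within 2-fold, with medians of 2872 CPM per cell in the control and 4648 CPM in the induced library and ranges that overlapped.

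The spinous cells of the 2 libraries differed in markers of other classes. The 12 upper follicle markers summed to 547 CPM in the control and 5183 CPM in the induced library, and the 7 companion markers to 814 and 7348 CPM. Among them Krt17 had 180 and 3731 CPM and Krt79 215 and 775 CPM, while the companion keratin Krt75 was at 0 and 0.505 CPM. Krt6a had 0.913 and 701 CPM. The summed level of 19 granular markers was 310 CPM in the control and 1665 CPM in the induced library, and 1 induced spinous cluster, led by Sprr1b, held 1993 CPM of loricrin and 2639 CPM of Spink5. The part of these markers in the Spink5 and Klk8 differences was not tested. The induced spinous clusters led by Krt1 and Npl and by Krt1 and F3, with 69.0 and 181 CPM of loricrin, had 501 and 1088 CPM of Spink5. The remaining induced cluster, led by Krt16 (65 cells), with 31.9 CPM of loricrin, had 193 CPM. Of the control clusters, the one led by Krt1 and Clca3a2 (103 of 134 cells), with 50.5 CPM of loricrin, had 59.05 CPM of Spink5, and the one led by Serpinb12, with 261 CPM of loricrin, had 266 CPM, more than the induced cluster led by Krt16. Klk8 had 153 and 452 CPM in these control clusters, 133 CPM in the induced cluster led by Sprr1b, and 22.6, 30.1 and 23.6 CPM in those led by Krt1 and Npl, Krt1 and F3, and Krt16.

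By layer, 5 members passed the filter on counts in basal cells, 6 in spinous and 8 in granular cells. In basal cells Klk5 and Klk8 were lower and none was higher. Klk5 had 20.8 and 4.77 CPM there (log2 ratio -2.13, -2.42 to -1.83). Fibroblasts had 3.48 and 1.69 CPM of Klk5, so its induced basal level lay near background. With 20 CPM added in place of 5, Klk5 and Klk8 in basal cells were at -0.72 and -0.98, under the fold, and at resolution 1.0 Klk5 was at -0.97, which leaves Klk8 as the member called lower. Among all genes 2.61% were higher and 3.78% lower in basal, 5.44% and 4.71% in spinous, and 12.5% and 8.37% in granular cells, where 9 control cells stand against 58. In spinous cells Spink5 was the member called higher and Klk8 the one called lower. Other members were past the fold there under some alternatives: Klk7 (2.42), Cst6 and Spink5 were higher and Klk8 and Klk10 lower with doublets kept, and Klk5 (1.08), Klk7 (3.07), Cst6 (2.15) and Spink5 were higher at resolution 1.0, while 7.31% and 7.03% of all genes were higher and 10.4% and 7.09% lower. With every cell weighted equally, Klk7 (1.18) and Cst6 (1.30) were higher beside Spink5, against 6.16% of all genes higher and 5.91% lower. In granular cells Klk8, Klk13 and Cst6 were lower and none was higher. Klk6 had 113.7 and 149 CPM there, but 1 of the 9 control cells held 89.6% of its control UMIs, and without the top cell of each library its ratio moved from 0.37 to 2.54. Spink5 in granular cells was at 0.68, and at 1.02 with every cell weighted equally, where 23.4% of all genes were higher. The granular cells of the 2 libraries also differed in markers. The 19 granular markers summed to 87598 CPM in the control and 24299 CPM in the induced library, with loricrin at 67279 and 17241 CPM. The 7 companion markers summed to 3032 and 14457 CPM and the 12 upper follicle markers to 5879.5 and 13379.7 CPM, with Krt6a at 0 and 1534 CPM and Krt75 at 0 and 0.272 CPM. The part of these markers in the granular values was not tested. Stress-response genes, which dissociation can raise, summed to 10678 CPM in control and 5815 CPM in induced basal cells, companion markers to 604 and 1814 CPM and upper follicle markers to 1039 and 2002 CPM, and their part in the basal values was not tested.

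The granular Cst6 value rested largely on a single cell. Its levels of 10705 and 2003 CPM gave a log2 ratio of -2.42 (-2.47 to -2.37), but 1 of the 9 control cells held 68.9% of the control UMIs. The median cell had 1977 CPM in the control and 1649 CPM in the induced library, and without the top cell of each library the ratio, with 5 CPM added, was -1.23. Leaving out the top cell of each library also turned the direction over all epidermal cells, where Cst6 had 443 and 279 CPM: the ratio was -0.66 with these cells and 0.40 without. In spinous cells, where no cell held over 12.7% of the UMIs, Cst6 had 235 CPM in the control and 448 CPM in the other library, a ratio of 0.93 (0.85 to 1.02). Klk5 and Klk7 in granular cells had ratios of -0.88 (-0.996 to -0.76) and -0.92 (-1.002 to -0.83), both within the fold. The median gene was at 0.19 in granular cells, and relative to it Klk5 and Klk7 were at -1.06 and -1.10, past the fold, which makes 5 members lower, against 11% of all genes lower on that scale. Klk7 was also past it under the stricter filter (-1.10) and library-centred clustering (-1.12).

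In upper follicle cells 8 members had enough counts, of which Klk6 was higher and Klk5, Klk8 and Cst6 were lower in the induced library. Of 7809 genes 2.38% were higher and 3.0% lower, and the median of the members was -0.87 against -0.09 for all genes. Klk8 had 368 and 106 CPM, a log2 ratio of -1.79 (-1.90 to -1.68). Cst6 had 8475 and 3156 CPM, or -1.43 (-1.45 to -1.40), and Klk5 had 275 and 121 CPM, or -1.18 (-1.29 to -1.07). Klk7 (1271 and 740.5 CPM), Klk10 (61.3 and 106 CPM), Klk11 (49.7 and 23.0 CPM) and Spink5 (399 and 349 CPM) stayed within the fold with 5 CPM added, Klk11 at -0.97. Several of these calls changed with the weighting or the clusters used. With 1 CPM added Klk11 was also lower (-1.08). With every cell weighted equally Klk11 was lower (-1.24) and Klk5 was not (-0.98), while 3.18% of all genes were higher and 2.34% lower. In the clusters with at least 20 cells in each library, Klk5 (-0.65) and Klk8 (-0.55) were within the fold and Klk11 (-2.07), Spink5 (-2.35) and Cst6 were lower, while 11.5% of all genes were higher and 5.72% lower.

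The upper follicle values depended on which cells the class held. Its cells came mostly from clusters of 1 library each: in the control from those led by Krt77 (124 cells), Defb6 (50) and Inhba (41), in the induced library from those led by Krt79 and Dpysl3 (71), Krt79 and Krt7 (58), Krt79 and Ccl27a (57) and Krt79 and Defb6 (47). A pair of clusters that share the leading gene Defb6, singled out after their values were seen, were the control cluster led by it and the induced cluster led by Krt79 and Defb6. They had 722 and 152 CPM of Klk8, 667 and 258 CPM of Klk5, 2451 and 998 CPM of Klk7, 1177 and 998 CPM of Spink5 and 17243 and 2425 CPM of Cst6. Klk10 was at 38.1 and 41.7 CPM, and Klk6 at 106.5 and 368 CPM. In the induced cluster 1 cell per gene held 69.2% of the Klk10, 95.02% of the Klk6 and 38.9% of the Cst6 UMIs. The control cluster had 1926 CPM of loricrin and the induced one 147 CPM, and both were rich in Krt10 (21837 and 23870 CPM). The control cluster held 2752 of the 2987 Spink5 and 5730 of the 9520 Klk7 UMIs of the control class. When the cells were filtered more strictly or clustered at resolution 1.0, Klk5 was at 0.87 and 0.88 on the log2 scale, with the opposite sign. Cst6 changed sign too, to 0.31, under library-centred clustering. Under the 4 other filters or clusterings tried, 3 members (Klk6, Klk10 and Spink5) were higher in this class, against 3.03% to 4.01% of all genes, 0 or 1 lower, against 4.39% to 8.12%, and Klk8 was between -1.08 and -0.05. Klk6 had 40.2 and 141 CPM, but 1 induced cell held 66.0% of its UMIs, and without the top cell of each library the ratio was 0.45. Over the class granular markers summed to 1158 and 522 CPM, companion markers to 12092 and 18761 CPM and sebaceous markers to 1034 and 275 CPM, and their part in these values was not tested.

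A single upper follicle cluster held at least 20 cells of each library, 24 control and 60 induced, and was led by Wfdc18, Apoe and Krt6a. Its control and induced cells differed in markers, with 17621 and 4307 CPM of Krt79 and 1871 and 3696 CPM of Krt6a. In this cluster Klk7 had 1168 and 1140 CPM, a log2 ratio of -0.03 (-0.19 to 0.12). These sums came from different shares of the cells: 17 of 24 control and 15 of 60 induced cells had a Klk7 UMI, the median cell had 274 CPM in the control and 0 in the induced library, and 1 induced cell held 52.5% of the UMIs. Klk10 had 424 and 504.5 CPM, or 0.25 (-0.0035 to 0.51). Cst6 had 36185 and 15691 CPM, or -1.21 (-1.24 to -1.17), with 54.5% of the induced UMIs in 1 cell. Klk6 had 45.2 and 249 CPM, or 2.46 (1.77 to 3.24), with 53.1% of the induced UMIs in 1 cell, and Klk11 had 40.2 and 5.79 CPM, from 16 and 6 UMIs. Spink5 had 389 and 72.3 CPM, but 96.1% of the control UMIs were in 1 cell, so this difference compares little more than that cell.

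In companion cells Klk10 was higher in the induced library and the other 7 members with enough counts stayed within 2-fold. Of 7733 genes 4.24% were higher and 8.10% lower, and the median gene was at -0.19. Klk10 had 1193 and 4261 CPM, a log2 ratio of 1.84 (1.75 to 1.92), with a median of 662 CPM per control cell and 2238 CPM per induced cell. The ranges, 0 to 5004 and 0 to 23396 CPM, overlapped, and without the top cell of each library the ratio was 1.53. Klk7 differed little, with a ratio of -0.04 (-0.10 to 0.02), as did Klk5 at 335 and 319 CPM, or -0.07 (-0.28 to 0.13). Spink5 was lower at -0.77 (-0.86 to -0.68) and Cst6 higher at 0.73 (0.71 to 0.75), neither past the fold. The median control cell had 58954.5 UMIs and the median induced cell 15779. Markers differed as well: the 7 companion markers summed to 12203 and 27919 CPM, the 12 upper follicle markers to 24141 and 46573 CPM and the 15 sebaceous markers to 1554 and 380 CPM, while Pinlyp had 19390.5 and 3699 CPM, Krt17 9914 and 24771 CPM and Krt75 142 and 738.5 CPM. The part of depth and of these markers in the Klk10 value was not tested.

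The companion class was not stable. Under each of 4 other ways to filter or cluster the cells, 12 to 16 of the 20 control cells and 10 to 13 of the 31 induced cells kept the companion name, and upper follicle was the most common name of the induced cells. The ratio of Klk10 was then between -0.88 and -0.14, and 6 members (Klk5, Klk6, Klk7, Klk11, Spink5 and Cst6) of the 7 or 8 with enough counts were called lower and none higher. Under these groupings 9.09% to 10.1% of all genes were lower and 7.77% to 9.74% higher. The values by cluster above describe the 51 cells that were grouped here and not a settled companion layer.

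Proteases and inhibitor were also followed cell by cell, after thinning to 2000 UMIs. Nearly all granular cells had a UMI of Spink5 and of at least 1 kallikrein member: 9 of 9 in the control, where the exact interval reaches down to 66.4%, and 53 of 57, or 93.0% (83.0 to 98.1), in the induced library. In spinous cells a kallikrein without Spink5 was found in 38.3% (30.1 to 47.2) of control and 7.14% (4.48 to 10.7) of induced cells. The reverse, Spink5 without a kallikrein, was found in 3.01% (0.825 to 7.52) and 40.1% (34.5 to 46.0). Of the pooled kallikreins, Klk8 was the most frequent in control spinous cells, with a UMI in 36.84% of control and 8.844% of induced cells. Klk5 was found in 15.04% and 10.88% of them, and Klk7, in the other direction, in 6.767% and 11.9%. Klk8 is not among the LEKTI targets named above, and the balance of Spink5 with those targets alone was not tested. In upper follicle cells a kallikrein without Spink5 was more frequent than Spink5 alone or both together, at 62.4% (55.9 to 68.6) and 39.7% (34.0 to 45.5), while 13.1% and 12.2% had both. In fibroblasts 4.21% and 3.61% had a kallikrein without Spink5, and none of 522 or 249 cells had both, which at 3 counts allows shares of up to 0.575% and 1.20% (exact upper bounds 0.704% and 1.47%).

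**Figure D3:**
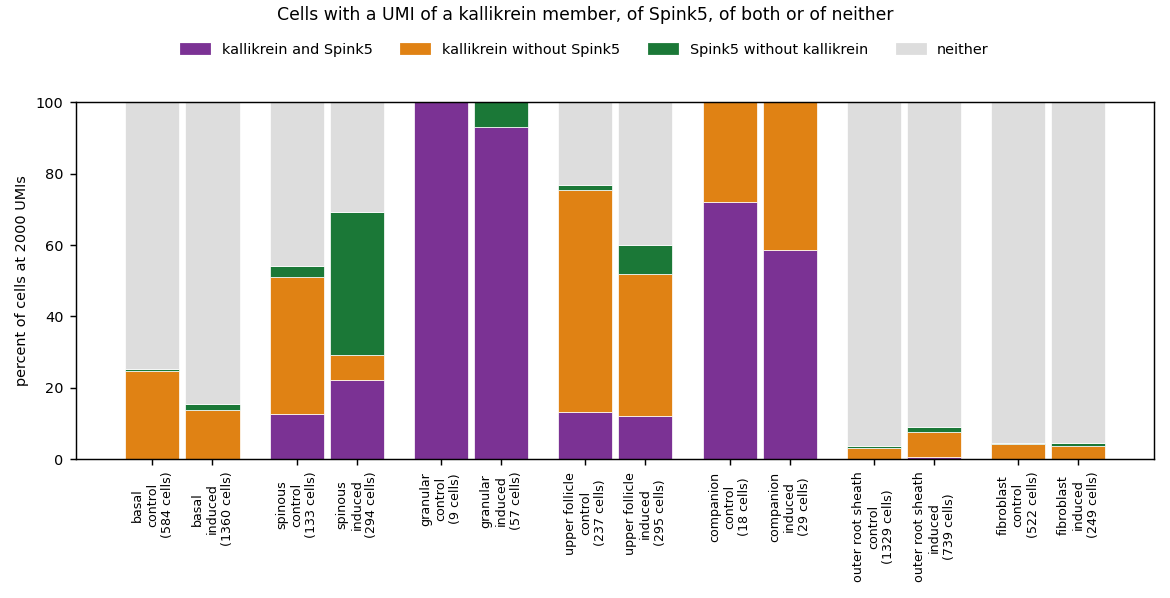
Percent of cells, each thinned to 2000 UMIs, with a UMI of at least 1 of the 8 kallikrein members and of Spink5 (purple), of a kallikrein alone (orange), of Spink5 alone (green) or of neither (grey), by class and library with the number of cells. In spinous cells orange takes 38.3% of the control and green 40.1% of the induced bar.

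Across clusters, the levels of Klk5 went with those of Klk7 and Klk8 more closely than with those of Klk10. Over the 49 cluster and library points with at least 30 cells (22 control, 27 induced), Pearson's r of log2 CPM, with 5 CPM added, was 0.89 between Klk5 and Klk7, 0.82 between Klk5 and Klk8, and 0.89 between Klk7 and Cst6. It was 0.70 between Klk7 and Spink5. For Klk10 r was -0.0032 with Klk8, 0.15 with Spink5, 0.16 with Klk11, 0.31 with Klk5, 0.40 with Klk13, 0.44 with Cst6, 0.49 with Klk7 and 0.63 with Klk6. The companion cluster went against the pattern of the whole, since it was among the 3 highest for Klk5 in each library (335 and 319 CPM) while Klk10 had 1193 and 4261 CPM and Klk8 20.5 and 26.2 CPM there. Its control part, with 20 cells, is not among the 49 points. The points share a library and its depth, and the coefficients are descriptions.

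**Figure D4:**
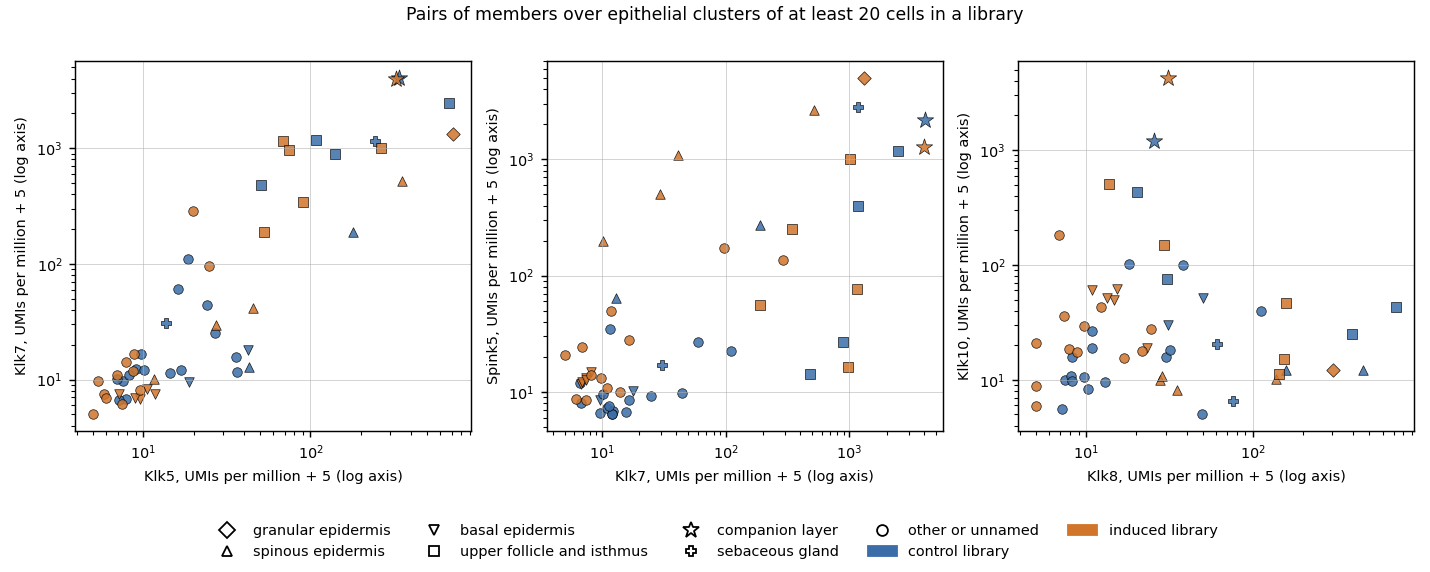
Levels of 3 pairs of members (CPM plus 5, log axes) over epithelial clusters with at least 20 cells in a library, a wider set than the 49 points behind r; colour gives the library and shape the class. Klk5 and Klk7 climb together (r = 0.89), Spink5 reaches 1088 CPM at 36.3 CPM of Klk7 in 1 spinous cluster of the induced library, and Klk10 is highest in companion cells, where Klk8 is low (r = -0.0032).

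For the 4 members with most UMIs, the genes of the most similar pattern were searched among 9645 genes over the same points. Spink5 was closest to Tgm1, the transglutaminase that cross-links the cornified envelope (r = 0.97), Ceacam19 and Pdzk1ip1 (both 0.95). Klk7 was closest to the proton pump subunit Atp6v1c2 (0.94), which is also one of the upper follicle markers used to name clusters, the receptor kinase gene Ephb2 (0.94) and Gsdma (0.90). Cst6 was closest to Atp6v1c2 (0.88), the zinc transporter gene Slc39a2 (0.86) and Atp6v0b (0.85). Klk10 was closest to Vtcn1 (0.82), AU018091 (0.82) and Slc23a3 (0.79). By Spearman's rho 2 of these 12 genes remained among the 3 closest.

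Genes that work beside the members were read from 4 lists, in all epithelial cells. Beside each list stand the 2.59% of all genes higher, the 4.27% lower and the median of -0.10. These sums mix cell types: named epidermal cells were 730 of 3964 control and 1744 of 4119 induced epithelial cells. Of 19 other protease inhibitors 11 had enough counts, 2 were higher and none lower, with a median log2 ratio of 0.54. The 2 were Slpi, an inhibitor of serine proteases (0.787 and 11.9 CPM), and Stfa2, a stefin that blocks cysteine proteases (12.5 and 46.2 CPM). The lowest were Serpinb5 at -0.28 (-0.30 to -0.26) and Csta1 at -0.13 (-0.16 to -0.10). Of 17 other epidermal proteases 13 had enough counts, and Asprv1, the aspartic protease that trims filaggrin (362 and 823 CPM), and Ctsh, a lysosomal cathepsin (50.5 and 137 CPM), were higher and none lower, with a median of 0.26. Tmprss4 (46.9 and 38.4 CPM) and Ctsb (315 and 299.6 CPM) were the lowest.

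The substrates and partners of the kallikreins in the corneodesmosome and the cornified envelope differed in both directions. Of 15 such genes all had enough counts, 4 were higher and 2 lower, with a median of 0.52. Corneodesmosin (Cdsn), which Klk5 and Klk7 cut, had 50.2 and 118 CPM, a log2 ratio of 1.23 (1.18 to 1.28), and desmocollin Dsc1 17.0 and 61.6 CPM, or 1.86 (1.77 to 1.95). Tgm1 (10.7 and 29.5 CPM) and Hrnr (34.4 and 80.2 CPM) were the other two. Filaggrin (Flg), whose monomers hold water in the outer layer, had 482 and 235 CPM, or -1.03 (-1.06 to -1.01), and Flg2 24.5 and 8.05 CPM, or -1.60 (-1.73 to -1.48). In epidermal cells Cdsn, Dsc1 and Tgm1 were higher and Flg, Flg2 and Tgm3 lower, so Spink5 there differed in the direction of Cdsn and Klk8 in that of filaggrin.

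In epidermal cells, where 3.22% of all genes were higher and 3.39% lower, 4 of the 11 other inhibitors with enough counts were higher (Spint1, Slpi, Wfdc5 and Stfa2) and none lower, and none of 13 other proteases was past the fold either way. Spint1, which restrains the membrane proteases that act upstream of the cascade, had 38.0 and 93.8 CPM, a log2 ratio of 1.30 (1.19 to 1.42). In upper follicle cells (2.38% of all genes higher, 3.0% lower) Slpi was higher and Serpina12 and Csta1 lower among 11 inhibitors, Ctsh and Asprv1 were higher among 14 proteases, and Tgm3 was higher and Flg, Flg2 and Hrnr lower among 15 partners. In companion cells (4.24% higher, 8.10% lower) Slpi and Cst3 were higher and Stfa3 lower among 9 inhibitors, and Tmprss11e, Tmprss11f, Ctsh and Asprv1 were higher and Capn1 lower among 16 proteases. Dsc1, Flg and Flg2 were higher and none lower among 13 partners in those cells. The medians of inhibitors, proteases and partners, in this order, were 0.30, 0.23 and 0.225 in epidermal cells (all genes -0.01). They were 0.07, 0.18 and 0.08 in upper follicle cells (-0.09) and 0.27, 0.64 and 0.51 in companion cells (-0.19).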

How the data were processed

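Skin suspensions of 1 control and 1 induced library were run on the 10x Genomics Single Cell 3′ v3.1 platform, per the labels' protocols. The deposited values are raw UMI counts per gene and barcode from Cell Ranger 6.0.0, per the file headers, with the genome build mm10 per the submitters' processing notes. The annotation release, the cell calling settings and whether the doublets were removed before deposit are not given in the sources used here.

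Barcodes with at least 1000 UMIs, 500 genes and under 15% mitochondrial UMIs were kept. The automatic scrublet threshold marked 3 and 1 barcodes and so had not worked, and the top 7% by score were taken out of either library (351 and 348). Both libraries entered 1 clustering with no integration step, in scanpy 1.11.5 (2000 variable genes, 30 components, 15 neighbours, Leiden 0.10.2 at resolution 1), and epithelial cells again at resolution 2. The members, the pathway genes and all other Klk, Spink and Cst genes took no part in the clustering. Clusters were named from marker lists: at least 3 markers and 33% of a list had to be 1.5-fold above the other clusters and detected in 25% of cells. Clusters with at least 5000 CPM of Krt79 could take no epidermal name. At 5000 CPM of Krt1 and Krt10 together the basal name was barred. The naming thresholds, and a further split at resolution 1.5 of clusters with at least 5000 CPM of Krt1, Krt10 and Krt79 together (20 clusters, 1375 cells), were set after the data were seen. Named classes held 64% of the control and 69.5% of the induced epithelial cells. No column of other samples was present.

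UMIs were summed per class and library and divided by all UMIs of the class. Levels have exact Poisson, ratios exact conditional binomial and shares Clopper-Pearson 95% intervals (Python 3.11.15, scipy 1.17.1). A gene passed with 10 CPM in 1 library, and was called at 2-fold with 5 CPM added. Alternatives use the same added CPM. On simulated data the script was checked and recovered the changed genes. That check covers the computation only and not the spread between animals. Shares of cells used 2000 UMIs drawn per cell, and shallower cells were left out.

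The members and gene lists were chosen with earlier results of these data known. Named genes were every member, the 3 genes most like each of the 4 members with most UMIs, and in each list the 2 highest and 2 lowest ratios and those past the fold. Gene positions and 3′ UTRs were read from GENCODE vM21 (GRCm38), in which 32158 of 32285 gene IDs were found, and microRNA and promoter sequences from RefSeq. Other filters, doublets kept, other clusterings, weights, scalings and added CPM were tried as alternatives.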

Additional observations from a re-analysis of the deposited data

Results flagged for a closer look

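Spink5 differed in opposite directions in 2 classes. It was higher in the spinous cells of the induced library, at a log2 ratio of 2.86, and lower in its companion cells, at -0.77, or 0.05 with every cell weighted equally. Cst6 was likewise higher in induced spinous cells, at 0.93, and lower in induced granular cells, at -2.42, where 1 of 9 control cells held 68.9% of the control UMIs. Neither difference between classes was tested, as each genotype is 1 library.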

How the results depend on the processing

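No paired analysis was possible because each genotype is 1 library, so there are fewer than 2 pairs. Of 17 member ratios past the fold, 13 kept their sign under every alternative run. Klk8 ranged from -2.18 to -1.38 in epidermal, -2.51 to -1.62 in spinous and -1.78 to -0.05 in upper follicle cells, and Spink5 from 1.23 to 2.60 in epidermal and 2.11 to 4.21 in spinous cells. Leaving out the top cell per library, and leaving out an induced cluster led by stress genes (122 cells), were chosen after seeing the data. Under doublets kept, stricter filter, library-centred clustering and resolution 1.0, in this order, Klk10 in companion cells was -0.14, -0.88, -0.27 and -0.35 and Klk5 in upper follicle cells 0.31, 0.87, 0.24 and 0.88. In all 4, companion members past the fold were 0 higher and 6 lower, and upper follicle ones 3 higher, with 0, 0, 1 and 0 lower. Cst6 in upper follicle cells was 0.31 when library-centred. Epidermal members lower were 2 under the last 3, against 2.87% to 2.91% of all genes, and higher 2 with 1 CPM added, against 4.49%. Over all epithelial cells, 1 was higher with 20 CPM added or without the top cell, and 0 lower with 20 CPM added, with cells weighted equally or in clusters with 20 cells in each library. Of all genes, 0.872% were higher and 1.57% lower with 20 CPM added. With cells weighted equally 3.13% were lower, and in the clusters with 20 cells in each library 3.62%. Those clusters hold no epidermal one, and Spink5 was -0.34 in them. Without the top cell, 0 upper follicle members were higher. By Spearman's rho 2 of 12 similar genes remained. Except where the construction shows it, the cause was not tested. Low counts limit Klk13 and Klk14, and the small number of cells limits all values from 9 granular or 20 companion control cells.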
